A study of Homo sapiens with 6 samples.

Results

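The genes described here are 10 enzymes and carriers of serine and amino acid metabolism, measured by RNA sequencing in cells labelled MKN45, which is an established line from a gastric tumour of human origin. They were chosen by name as 10 gene identifiers (IDs) out of 34866 in the deposited table: the serine synthesis enzymes Phgdh, Psat1 and Psph, the mitochondrial one-carbon enzymes Shmt2 and Mthfd2, and the plasma membrane amino acid transporters Slc7a5, Slc3a2, Slc7a11, Slc1a5 and Slc7a1. The cells had been given an adenovirus with a short hairpin RNA (shRNA) against Golph3 in 3 samples, and one with a control shRNA in the other 3. All 6 samples were therefore exposed to a virus, and all were grown in RPMI1640 with serum and antibiotics. The study's design text describes the line as negative for the mucin Muc6 and asks how the Golph3 hairpin changes gene expression. Golph3 is a Golgi protein that helps to retain glycosyltransferases. The sample titles are Golph3 sh1, sh2 and sh3 and shcont1, shcont2 and shcont3, and their numbers are used here as replicate numbers. The labels do not say how many hairpins were used, or whether the numbered samples are separate cultures. Differences between the numbered Golph3 samples may therefore include differences between hairpins, or the spread behind the p-values may be only technical.

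The IDs are mouse Ensembl IDs and the build named for the processing is mm10, although the labels give human cells. The table does not show whether human reads were matched to mouse genes or the cells were of mouse origin. Levels are therefore read as reads assigned to an ID. Libraries are compared by the same ID, or by the same ratio of IDs. Such a ratio is one of assigned reads and not of transcripts. The likeness of profiles uses changes from each ID's own control mean. The table holds no symbols, and the names used here are those listed for the 10 IDs. The level of Golph3, markers of gastric epithelial and other cells, and the further genes of these pathways were not analysed here, since no table used here pairs mouse IDs with symbols. The Golph3 shRNA libraries held 4977645 to 5676169 estimated counts, fewer than the 6287037 to 7355140 of the control libraries. All 10 IDs were among the 11400 that passed the filter on low counts, with mean levels of 12.5 to 528 normalised CPM (counts scaled to a common library size).

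Serine is made from the glycolytic intermediate 3-phosphoglycerate by a chain of enzymes: Phgdh oxidises it, Psat1 transfers an amino group, and Psph removes the phosphate. Shmt2 then splits serine into glycine and a one-carbon unit in mitochondria, and Mthfd2 oxidises that unit on its folate carrier, so that it can be used for nucleotide synthesis. Among the transporters, Slc3a2 is the heavy chain that pairs with light chains at the plasma membrane: with Slc7a5 it takes up large neutral amino acids such as leucine, and with Slc7a11 it imports cystine in exchange for glutamate. Slc1a5 carries glutamine and other small neutral amino acids, and Slc7a1 carries arginine and lysine. Many of these genes are known targets of Atf4, the transcription factor of the amino acid response, and Slc7a11 is also a known target of the antioxidant factor Nrf2.

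With Golph3 shRNA, Psat1, Mthfd2, Slc7a5 and Slc3a2 rose by 1.29-fold to 1.44-fold, and the other 6 genes did not pass the test. In bulk RNA, more cells with a transcript and more of it per cell cannot be told apart. The genes that rose are 2 of the 5 enzymes and 2 of the 5 transporters. Calls were made at an adjusted p below 0.05 in a test fitted to all 11400 IDs (edgeR quasi-likelihood test with Benjamini-Hochberg adjustment). Among all tested IDs, 33.9% were called in either direction, 16.1% higher and 17.8% lower. Among the 7248 IDs whose mean CPM lay within the range of these 10 genes, 42.9% were called. In either direction, 4 called in 10 is close to the background. All 4 calls were higher, so 4 of the 10 genes were called higher, against 16.1% of all tested IDs. The share called higher was not taken for the IDs within the range of mean CPM, where calls in either direction were more frequent. With 10 genes the 4 higher calls are given as a count, and their share was not tested. The genes were chosen with earlier results of these data known, so the background shares are not an independent yardstick for them. In 4 of the 10 genes every Golph3 shRNA library was above every control library, and in 0 every one was below, while among all tested IDs 46.3% were separate, 22.1% above and 24.2% below. None of the 10 was called lower (0 with edgeR, DESeq2 or limma-voom, and 0 with an unadjusted p below 0.05 in edgeR). The log2 fold changes (Golph3 shRNA over control shRNA) ran from -0.34 to 0.52 with a median of 0.30, and 8 of the 10 were above 0. Over all tested IDs the median was 0.0019, and 5716 of 11400 were above 0.

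**Figure D1:**
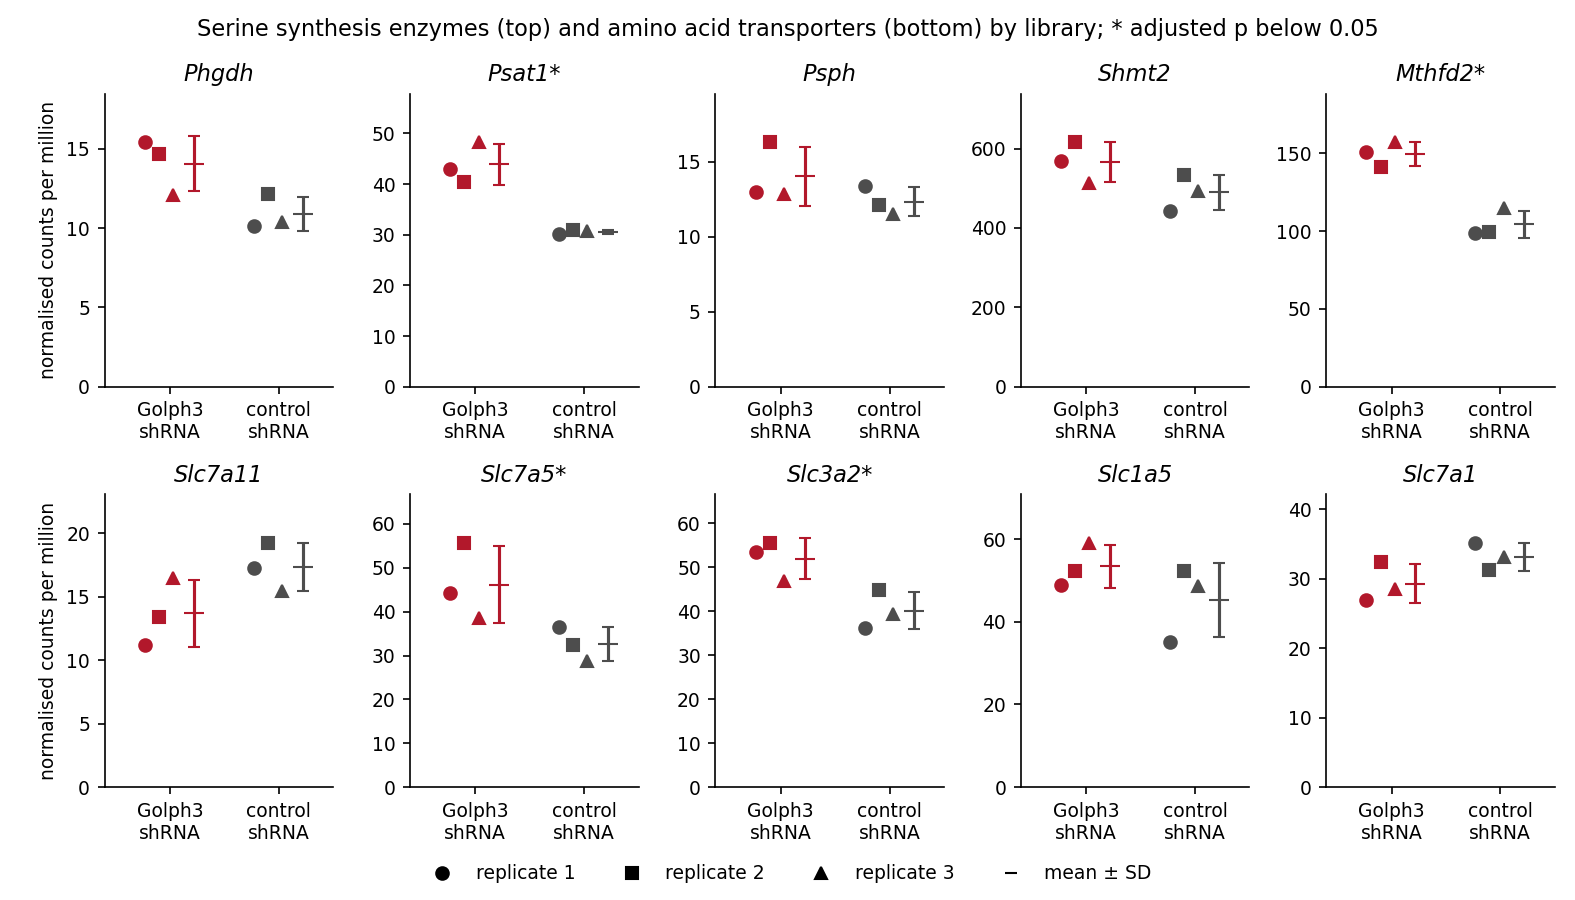
Normalised CPM of each gene in each library, with Golph3 shRNA libraries at the left of each panel and control shRNA libraries at the right; symbols mark the replicate number, and the horizontal mark with its bar is the mean ± SD of 3 libraries. In Psat1, Mthfd2, Slc7a5 and Slc3a2 (asterisks) the 3 Golph3 shRNA libraries lie above the 3 control libraries, while the groups overlap in the other 6 genes.

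The promoters of the genes that rose are shown because these are the genes that passed the test together, and with them that of SLC7A1, a transporter whose estimate lay below 0. The sequences are the human ones, as the labels give human cells. RefSeq promoters (build GRCh38.p14, 250 bases before the transcription start to 50 after it) were found by symbol for 7 of the 10 genes, in 11 windows, since some genes have several starts; those of PSPH, SHMT2 and SLC7A11 are named only. Each is printed 5′ to 3′ on the strand of its gene, up to base 30 counted from the start. The windows lie at chr9:78296875-78297154 (plus strand) for PSAT1, chr2:74198365-74198644 (plus) for MTHFD2, chr16:87869478-87869757 (minus) for SLC7A5, chr11:62881449-62881728 (plus) for the first listed of the 3 SLC3A2 starts, and chr13:29595659-29595938 (minus) for SLC7A1. Capitals mark matches to either of the 2 motifs searched, as described after the sequences.
PSAT1 promoter: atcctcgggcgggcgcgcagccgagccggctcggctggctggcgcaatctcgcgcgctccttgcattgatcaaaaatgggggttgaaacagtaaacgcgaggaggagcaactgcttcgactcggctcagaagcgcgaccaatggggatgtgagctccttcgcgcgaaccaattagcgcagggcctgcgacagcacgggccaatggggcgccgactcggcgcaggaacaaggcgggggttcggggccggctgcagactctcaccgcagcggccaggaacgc
MTHFD2 promoter: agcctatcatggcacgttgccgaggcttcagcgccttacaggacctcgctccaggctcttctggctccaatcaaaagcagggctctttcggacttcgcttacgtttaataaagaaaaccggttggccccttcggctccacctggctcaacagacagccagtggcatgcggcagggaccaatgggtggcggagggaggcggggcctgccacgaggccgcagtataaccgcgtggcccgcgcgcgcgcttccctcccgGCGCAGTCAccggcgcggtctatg
SLC7A5 promoter: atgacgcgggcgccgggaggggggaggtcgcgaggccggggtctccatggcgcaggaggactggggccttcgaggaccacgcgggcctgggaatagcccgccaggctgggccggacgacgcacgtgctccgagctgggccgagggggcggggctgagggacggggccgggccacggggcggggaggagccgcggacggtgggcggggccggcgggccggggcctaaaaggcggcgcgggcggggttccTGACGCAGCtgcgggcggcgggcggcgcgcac
SLC3A2 promoter: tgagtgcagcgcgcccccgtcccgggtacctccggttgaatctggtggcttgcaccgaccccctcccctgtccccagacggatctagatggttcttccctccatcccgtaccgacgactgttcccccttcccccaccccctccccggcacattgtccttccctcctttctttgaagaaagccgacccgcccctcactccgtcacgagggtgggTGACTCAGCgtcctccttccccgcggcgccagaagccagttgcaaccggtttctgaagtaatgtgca
SLC7A1 promoter: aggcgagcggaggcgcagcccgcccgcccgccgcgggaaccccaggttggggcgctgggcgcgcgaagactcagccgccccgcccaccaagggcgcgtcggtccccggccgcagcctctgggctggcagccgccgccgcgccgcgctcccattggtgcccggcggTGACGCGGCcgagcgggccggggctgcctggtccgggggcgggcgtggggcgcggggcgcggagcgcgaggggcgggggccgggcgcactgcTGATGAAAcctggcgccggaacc

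The motifs were the Atf4-type response element TGATGNAA and the antioxidant response element core TGACNNNGC, each on both strands. Of 35116 human promoter windows of this length, 3.62% held the Atf4-type letters and 13.3% the antioxidant core. Among the 11 windows of these genes, 3 held the Atf4-type letters. They are that of SLC7A1, the first listed of the 3 SLC3A2 windows, and 1 of the 3 windows of SLC1A5. The match begins at base 8 counted from the start in SLC7A1. In SLC3A2 it begins at base 38 and so lies beyond the printed stretch. The antioxidant core was found in 5 windows. It begins at base 7 counted from the start in MTHFD2, 2 bases before the start in SLC7A5, 37 bases before it in SLC3A2 and 85 bases before it in SLC7A1, and also lies in 1 window of SLC1A5. No match of one motif overlapped a match of the other. The PSAT1 and PHGDH windows held neither, and nor did the remaining SLC3A2 windows, which are not printed. Among the windows shown, those of SLC3A2, whose ID rose, and SLC7A1, whose ID was not called, held both motifs; those of MTHFD2 and SLC7A5 held the antioxidant core alone, and that of PSAT1 held none. A match is a run of letters and not a measured site, and the absence of one says nothing about the factor.

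Of the serine synthesis enzymes, Psat1 was the one that rose. Psat1, the aminotransferase of the pathway (ENSMUSG00000024640.9), stood at 43.0, 40.5 and 48.2 CPM in Golph3 shRNA replicates 1, 2 and 3, against 30.2, 31.0 and 30.7 CPM in control replicates 1, 2 and 3. The groups did not overlap, and the control values lay within 1 CPM of each other. Its log2 fold change was 0.52 (SE 0.11, edgeR adjusted p = 0.0021), a 1.43-fold higher level with a 95% interval of 1.21 to 1.69.

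Phgdh, the enzyme that commits 3-phosphoglycerate to the pathway (ENSMUSG00000053398.11), was sparsely counted, with 66.5 to 82.4 estimated counts in a Golph3 shRNA library and 65.5 to 89.0 in a control library. It had 15.4, 14.7 and 12.1 CPM in Golph3 shRNA replicates 1, 2 and 3, and 10.1, 12.1 and 10.4 CPM in control replicates 1, 2 and 3. Replicates 1 and 2 with Golph3 shRNA lay above all controls, and replicate 3 lay level with control replicate 2. The log2 fold change of 0.37 (SE 0.19) was not called (edgeR adjusted p = 0.16), and its 95% interval of 0.967-fold to 1.72-fold includes the change found for Psat1.

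Psph, the phosphatase that releases serine (ENSMUSG00000029446.14), had 13.0, 16.3 and 12.8 CPM in Golph3 shRNA replicates 1, 2 and 3, against 13.4, 12.1 and 11.5 CPM in control replicates 1, 2 and 3. Only Golph3 shRNA replicate 2 stood above the controls. Its log2 fold change was 0.19 (SE 0.19, edgeR adjusted p = 0.47), with a 95% interval of -0.21 to 0.59, and it was 0.061 without Golph3 shRNA replicate 2 (adjusted p = 0.86). Psph had 64.0 to 91.0 estimated counts in a Golph3 shRNA library and 73.0 to 89.0 in a control library, so that at this depth a change of the size of that in Psat1 was neither detected nor outside the interval.

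Of the mitochondrial one-carbon enzymes, Mthfd2 rose and Shmt2 lay at the threshold. Mthfd2, the dehydrogenase and cyclohydrolase of the mitochondrial folate pathway (ENSMUSG00000005667.8), reached 151, 141 and 157 CPM in Golph3 shRNA replicates 1, 2 and 3, against 99.0, 99.3 and 115 CPM in control replicates 1, 2 and 3. The lowest Golph3 shRNA value lay well above the highest control value. Its log2 fold change was 0.52 (SE 0.083, edgeR adjusted p = 0.00017), which is 1.44-fold with a 95% interval of 1.27 to 1.62. It had the smallest adjusted p of the 10 genes.

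Shmt2, the serine hydroxymethyltransferase of mitochondria (ENSMUSG00000025403.5), gave the most counts of the 10, with 2808 to 3439 estimated counts in a Golph3 shRNA library and 2852 to 3905 in a control library. After scaling, it stood at 569, 616 and 514 CPM in Golph3 shRNA replicates 1, 2 and 3, against 444, 532 and 493 CPM in control replicates 1, 2 and 3. Golph3 shRNA replicate 3 lay below control replicate 2, so the groups overlapped. Its log2 fold change was 0.21 (SE 0.081), a 1.16-fold difference that missed the threshold (edgeR adjusted p = 0.058). It was called by DESeq2 (adjusted p = 0.046), by limma-voom (adjusted p = 0.049), with upper quartile scaling (adjusted p = 0.039) and with no filter beyond 1 count (adjusted p = 0.043). It was also called without control replicate 2 (log2 fold change 0.27, adjusted p = 0.041) and without Golph3 shRNA replicate 3 (log2 fold change 0.27, adjusted p = 0.024). The estimate dropped to 0.14 without control replicate 1 and to 0.14 without Golph3 shRNA replicate 2 (adjusted p = 0.22 in both).

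**Figure D2:**
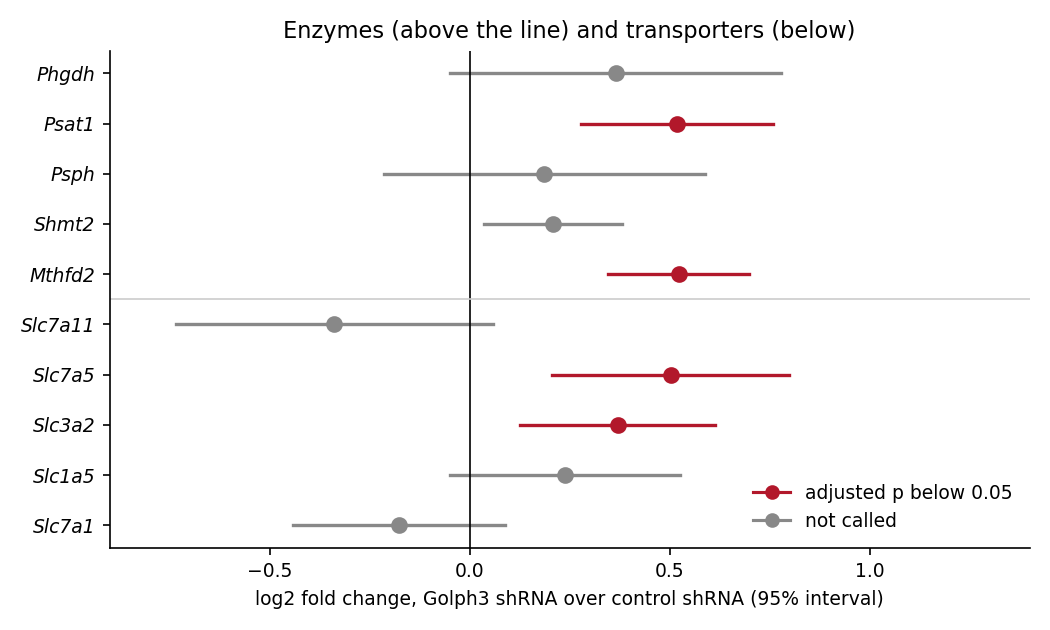
Log2 fold change (Golph3 shRNA over control shRNA) of each gene from the test across all IDs, with lines for the 95% interval; enzymes stand above the grey line and transporters below it. The intervals of Psat1, Mthfd2, Slc7a5 and Slc3a2 (red, adjusted p below 0.05) lie above 0, that of Shmt2 also lies above 0 but its adjusted p is 0.058, and Slc7a11 and Slc7a1 have estimates below 0 with intervals that include 0.

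Both chains of the large neutral amino acid carrier rose. Slc7a5, its light chain (ENSMUSG00000040010.10), had 44.2, 55.7 and 38.5 CPM in Golph3 shRNA replicates 1, 2 and 3, against 36.6, 32.3 and 28.8 CPM in control replicates 1, 2 and 3. The groups stood apart, but Golph3 shRNA replicate 3 lay close to control replicate 1, and replicate 2 was the highest of all 6. The log2 fold change was 0.50 (SE 0.14, edgeR adjusted p = 0.011), which is 1.42-fold with a 95% interval on the log2 scale of 0.21 to 0.80. The call was lost without Golph3 shRNA replicate 2 (log2 fold change 0.34, adjusted p = 0.075) and without control replicate 3 (log2 fold change 0.42, adjusted p = 0.052).

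Slc3a2, the shared heavy chain (ENSMUSG00000010095.13), had 53.5, 55.5 and 46.8 CPM in Golph3 shRNA replicates 1, 2 and 3, against 36.3, 44.7 and 39.4 CPM in control replicates 1, 2 and 3. The groups stood apart by a small margin, between Golph3 shRNA replicate 3 and control replicate 2. The estimate for Slc3a2 was 0.37 on the log2 scale (SE 0.11, edgeR adjusted p = 0.020), which is 1.29-fold with a 95% interval of 1.09 to 1.53. The call was lost without control replicate 1 (adjusted p = 0.086), without control replicate 3 (adjusted p = 0.059), without Golph3 shRNA replicate 1 (adjusted p = 0.072) and without Golph3 shRNA replicate 2 (adjusted p = 0.073), with log2 fold changes of 0.30, 0.35, 0.34 and 0.31 in that order. Psat1 and Mthfd2 passed in each of the 6 tests that left out 1 library. The number of genes called higher was 2 without Golph3 shRNA replicate 2 and also 2 without control replicate 3.

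Slc7a11, the cystine carrier that uses the same heavy chain (ENSMUSG00000027737.10), had an estimate in the other direction. It stood at 11.2, 13.4 and 16.4 CPM in Golph3 shRNA replicates 1, 2 and 3, against 17.3, 19.2 and 15.4 CPM in control replicates 1, 2 and 3. Golph3 shRNA replicates 1 and 2 lay below all controls, and replicate 3 lay above control replicate 3. The log2 fold change of -0.34 (SE 0.19) was not called (edgeR adjusted p = 0.18), and its 95% interval ran from 0.601-fold to 1.04-fold. Without Golph3 shRNA replicate 3 the estimate was -0.50 and still was not called (adjusted p = 0.084). Without Golph3 shRNA replicate 1 it was -0.22 (adjusted p = 0.44).

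Slc1a5, the glutamine carrier (ENSMUSG00000001918.17), had 48.9, 52.3 and 59.1 CPM in Golph3 shRNA replicates 1, 2 and 3, against 35.0, 52.2 and 48.5 CPM in control replicates 1, 2 and 3. Control replicate 1 stood well below the other 5 libraries, which overlapped. The log2 fold change was 0.24 (SE 0.14, edgeR adjusted p = 0.19, 95% interval 0.966-fold to 1.44-fold), 0.080 without control replicate 1 (adjusted p = 0.66) and 0.15 without Golph3 shRNA replicate 3 (adjusted p = 0.48).

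Slc7a1, the arginine and lysine carrier (ENSMUSG00000041313.14), had 27.0, 32.4 and 28.6 CPM in Golph3 shRNA replicates 1, 2 and 3, against 35.2, 31.2 and 33.1 CPM in control replicates 1, 2 and 3. Golph3 shRNA replicate 2 lay above control replicate 2, and the other 2 Golph3 shRNA values lay below all controls. The difference was -0.18 on the log2 scale (SE 0.12, edgeR adjusted p = 0.30, 95% interval 0.737-fold to 1.06-fold).

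Ratios of 2 genes within a library do not depend on how libraries are scaled, and 5 were taken from the deposited estimates. With 3 libraries against 3, the exact two-sided permutation test over libraries cannot go below p = 0.1. The cystine carrier set against its heavy chain, Slc7a11 over Slc3a2, had ratios of 0.210, 0.242 and 0.353 in Golph3 shRNA replicates 1, 2 and 3, against 0.478, 0.429 and 0.391 in control replicates 1, 2 and 3. This was the only 1 of the 5 ratios in which the groups did not overlap. Among all tested IDs, taken singly, 46.3% were separate, and no such share was taken for ratios of other IDs. The log2 ratio averaged -1.94 ± 0.39 with Golph3 shRNA and -1.21 ± 0.14 in the controls (SD, n = 3 each), a difference of -0.72 (exact permutation p = 0.1, adjusted over the 5 ratios p = 0.5).

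For the other light chain set against the same heavy chain, the groups overlapped. The log2 ratio of Slc7a5 to Slc3a2 averaged -0.18 ± 0.16 with Golph3 shRNA and -0.30 ± 0.27 in the controls (SD, n = 3 each, exact permutation p = 0.6, adjusted p = 0.6), a difference of 0.12. For the one-carbon enzymes, the log2 ratio of Shmt2 to Mthfd2 was 1.92 ± 0.21 with Golph3 shRNA and 2.23 ± 0.17 in the controls (SD, n = 3 each, exact permutation p = 0.2, adjusted p = 0.5). The groups overlapped there by 1 library, Golph3 shRNA replicate 2, which lay above control replicate 3. Within serine synthesis, the log2 ratio of Psat1 to Psph stood at 1.65 ± 0.31 with Golph3 shRNA and 1.31 ± 0.13 for control shRNA (SD, exact permutation p = 0.3, adjusted p = 0.5, n = 3 each). That of Phgdh to Psat1 stood at -1.64 ± 0.31 with Golph3 shRNA and -1.49 ± 0.12 for control shRNA (SD, exact permutation p = 0.6, adjusted p = 0.6, n = 3 each), where Golph3 shRNA replicate 3 had the lowest ratio of all 6, 0.249.

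**Figure D3:**
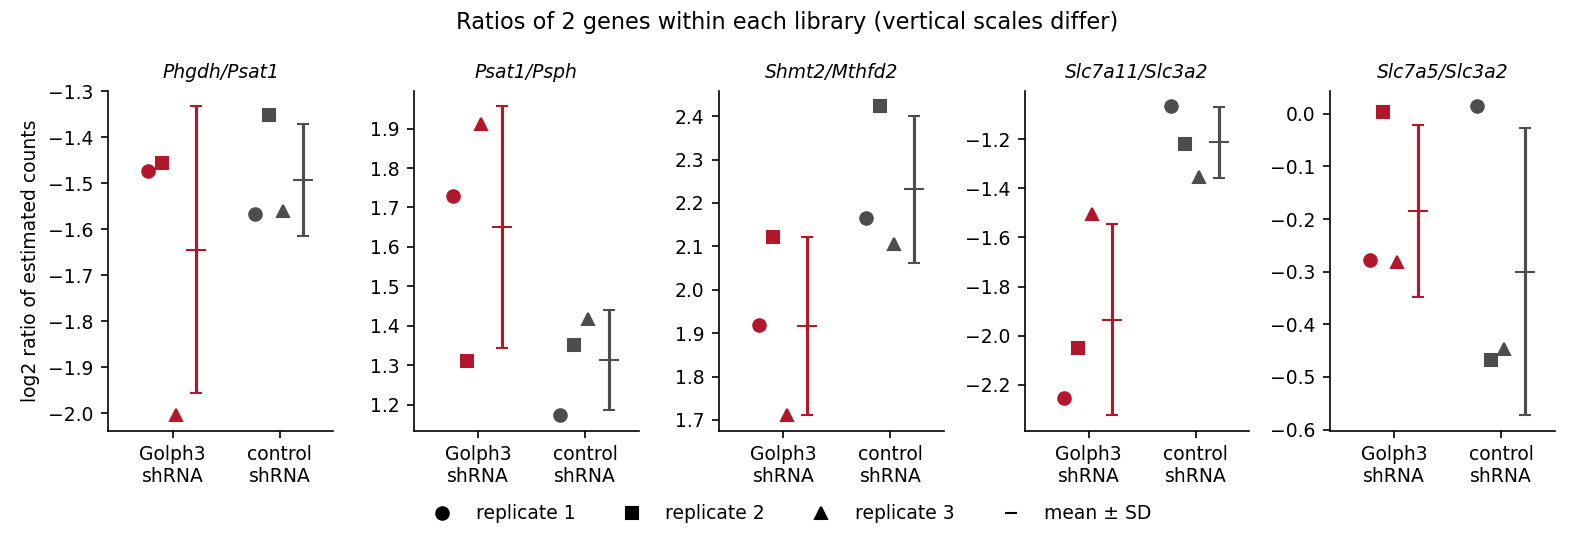
Log2 ratio of the estimated counts of 2 genes within each library, Golph3 shRNA at the left and control shRNA at the right of each panel; symbols mark the replicate number and the horizontal mark with its bar is the mean ± SD of 3 libraries, on vertical scales that differ and do not start at 0. Slc7a11 over Slc3a2 is lower in each Golph3 shRNA library (ratios of 0.210 to 0.353) than in each control library (0.391 to 0.478), and the groups overlap in the other 4 ratios.

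The genes differed in which library was highest. Among the Golph3 shRNA libraries, replicate 2 had the highest CPM of 5 genes (Psph, Shmt2, Slc7a5, Slc3a2 and Slc7a1), replicate 3 that of 4 (Psat1, Mthfd2, Slc7a11 and Slc1a5) and replicate 1 that of Phgdh. Likeness of profiles was taken as the root mean square difference, over the 6 libraries, of log2 CPM centred on each gene's control mean. By this measure Psat1 and Mthfd2 were each other's nearest neighbour among the 10 (0.076), and so were Phgdh and Slc3a2 (0.052). Slc7a11 was the farthest from each of the other genes except Slc7a1, its own nearest neighbour (0.23). Among the other 11399 tested IDs, the nearest to Phgdh were ENSMUSG00000018585.9 (0.046), which has no symbol here, and Slc3a2 (0.052). All 6 libraries form only 2 groups, so a small difference mostly says that a pair of genes has a similar fold change.

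The counting behind these values differed by gene. The estimates of Psat1, Mthfd2, Slc7a5 and Slc1a5 were whole numbers in all 6 libraries, and those of Psph lay within 0.01 of a whole number in all 6. The estimates of Phgdh, Shmt2, Slc7a11 and Slc3a2 had a fractional part in all 6, and that of Slc7a1 was whole in 1. Fractional estimates can arise where reads are split over several genes. No source used here states the counting method. The values of those 5 genes may therefore be less certain, and by how much was not measured. When the test was fitted to IDs with whole values alone, Psat1 (log2 fold change 0.54), Mthfd2 (0.54) and Slc7a5 (0.52) were called and Slc1a5 (0.26) was not. The Golph3 shRNA libraries were smaller than the controls. With every library thinned to the smallest total, the log2 fold changes of the 4 genes that rose were 0.52 for Psat1, 0.56 for Mthfd2, 0.51 for Slc7a5 and 0.38 for Slc3a2, and all 4 were called.

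**Figure D4:**
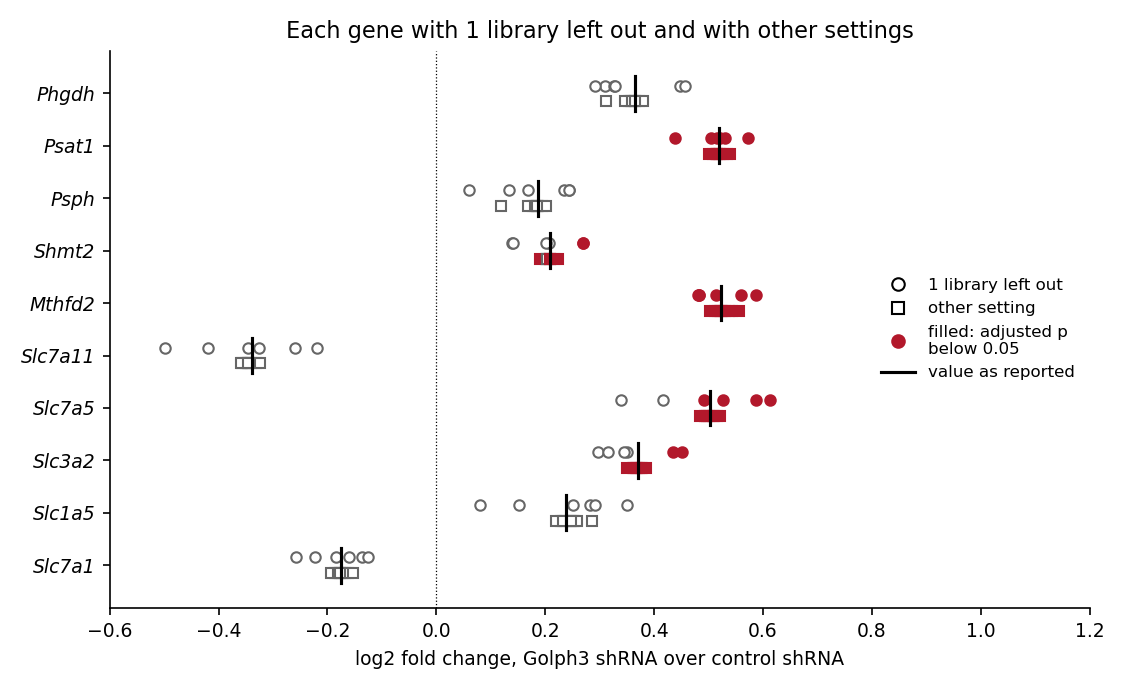
Log2 fold change (Golph3 shRNA over control shRNA) of each gene when 1 library is left out (circles) or another setting is used (squares); filled marks have an adjusted p below 0.05 and the black line is the value as reported. Psat1 and Mthfd2 are filled throughout, Slc7a5 and Slc3a2 lose the call in 2 and 4 of the 6 tests with 1 library left out, and no gene crosses 0.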

How the data were processed

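The deposited table gives estimated counts by mouse Ensembl gene ID, without normalisation. Libraries were made with a stranded mRNA kit, per the labels' protocols, and the build was mm10, per the submitters' processing notes; the aligner or quantifier, annotation release, strand setting and filters are not stated in the labels. After rounding, IDs were filtered with edgeR's filterByExpr (11400 of 34866), and groups were compared in 1 fit over all kept IDs with edgeR 4.0.16 (R 4.3.3, TMM factors, quasi-likelihood F test, Benjamini-Hochberg adjustment, threshold 0.05). SE was taken as |log2 fold change| / √F. CPM used TMM-scaled library sizes, and log2 CPM for profile likeness had a prior count of 2. Ratios used the unrounded estimates and exact permutation tests (SciPy 1.17.1). The fit was also tested on simulated counts. Alternatives were DESeq2 1.42.0, limma-voom (limma 3.58.1), other scalings and filters, whole values only, thinning, a replicate block, each library left out and a 1.5-fold minimum. All 10 genes are named by rule. The genes and lists were chosen with earlier results of these data known. Lists of related genes by symbol, and the check of cell type markers, were not run, since no table used here pairs mouse IDs with symbols.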

Additional observations from a re-analysis of the deposited data

How the results depend on the processing

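Over 16 alternative tests and the 10 genes, 154 log2 fold changes were obtained, and none changed sign; 7 were newly called, each of them Shmt2, and 6 lost the call, each of them Slc7a5 or Slc3a2 with 1 library left out. Genes called higher numbered 4 as reported, 2 to 5 with 1 library left out, and 0 with a minimum of 1.5-fold, since all 4 lay below that by their estimates; genes called lower numbered 0 throughout. The fit to 6263 IDs with whole values called 1240 IDs lower, where fewer IDs were tested. The 1.5-fold minimum left 749 IDs higher and 1041 lower, by construction. With 1 library left out, 1425 to 1665 IDs were higher and 1644 to 1929 lower. The difference in log2 ratio with 1 library left out ran from -0.25 to 0.029 for Phgdh over Psat1, the sign turning without Golph3 shRNA replicate 3 (-0.15 as reported). The other 4 ratios kept their sign, with ranges of 0.021 to 0.27 for Slc7a5 over Slc3a2 (0.12 as reported; lowest without Golph3 shRNA replicate 2, then 0.031 without control replicate 2 and 0.041 without control replicate 3, highest without control replicate 1), 0.21 to 0.51 for Psat1 over Psph (0.34 as reported; lowest without Golph3 shRNA replicate 3, highest without Golph3 shRNA replicate 2), -0.42 to -0.21 for Shmt2 over Mthfd2 and -0.94 to -0.56 for Slc7a11 over Slc3a2. Same-numbered samples deviated together only weakly (correlations across IDs of 0.032, 0.090 and 0.044), and the labels do not tie them. For samples with unlike numbers the correlations ran from -0.086 to 0.037. With the replicate block in the edgeR test, 5 of the genes were called higher, Shmt2 being the added one (adjusted p = 0.040). Counts of 55.4 to 141 per library for Phgdh, Psph and Slc7a11 limit what could be detected in them.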
